A study of Mus musculus with 7 samples.

Results

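The phase II conjugating enzymes of the liver were followed here as 48 genes of 19933 with a measured level: 22 glutathione transferases, 10 UDP-glucuronosyltransferases and 16 sulfotransferases. A gene was a member if its symbol began with Gsta, Gstk, Gstm, Gsto, Gstp, Gstt, Gstz, Mgst, Ugt1, Ugt2, Ugt3 or Sult, and it was read from its brightest probe set that carries exactly 1 gene symbol. No Ugt1 gene met this condition, because the Ugt1a genes share a probe set. Livers came from C57BL/6 male mice aged 4 months, fed chow freely and killed 2 weeks after virus injection at 5 pm (ZT10, 10 h after lights on). In the HDAC3 knockout group (KO, 3 arrays), mice received an adeno-associated virus (AAV) carrying the gene for the recombinase Cre. Mice of the rescued group (4 arrays, titled WT in the labels) were given AAV-Cre together with a further AAV that encodes Flag-tagged wild-type HDAC3, a class I histone deacetylase of the NCoR and SMRT corepressor complexes. Both groups therefore carried AAV-Cre, and the groups differ by 1 vector as well as by HDAC3. The labels name neither the Hdac3 allele on which Cre acts nor the promoter that drives Cre, and no uninjected liver was analysed here. The labels call the arrays biological replicates.

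Phase II enzymes attach a water-soluble group to drugs, toxins, steroids, bile acids and other lipophilic molecules so that they can leave in bile or urine. Glutathione transferases join the tripeptide glutathione to electrophiles, and they are grouped in cytosolic classes named by Greek letters, a mitochondrial and peroxisomal kappa class and a membrane-bound microsomal family. UDP-glucuronosyltransferases sit in the endoplasmic reticulum and transfer glucuronic acid from UDP-glucuronic acid. Sulfotransferases use the activated sulfate donor PAPS. Many of these genes are known to be induced through the nuclear receptors PXR and CAR, the Ah receptor and the factor NRF2.

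Values are log2 of the deposited intensity, and a difference is knockout minus rescued on that log2 scale. Values with ± are means and SD over the 3 knockout or the 4 rescued arrays. A gene is said to have been called, to have risen or to have fallen where limma's moderated test gave an adjusted p under 0.05 (Benjamini-Hochberg over all 19933 genes). By this rule 14.4% of all genes were called, 9.54% higher and 4.85% lower in the knockout livers. Levels of different probe sets do not rank the genes by abundance, and members of these families are similar enough in sequence for their probes to cross-hybridise. A level is called dim below where it did not exceed 6.21, a level that 95% of 1194 olfactory and vomeronasal receptor genes stayed under; these receptors belong to sensory neurons. Of the 48 members, 35 exceeded it and 13 did not.

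Hdac3 itself was at 8.93, 8.75 and 9.07 in knockout replicates 1 to 3, against 9.23, 9.45, 9.55 and 9.38 in rescued replicates 1 to 4. The groups did not overlap, and the difference was -0.48 (SE 0.10, adjusted p = 0.0124 in limma's test), lost without knockout replicate 1 (adjusted p = 0.05001). The probe set may also read the vector's transcript. All 3 knockout arrays had higher median intensities (105 to 111) than all 4 rescued arrays (96.3 to 102), so the calls were also made after rescaling the arrays in 3 ways (quantile normalization, median centring and cyclic loess). The 6 measured hepatocyte markers had no call and mean levels of 13.2 to 13.8. Their summed deposited intensity was 70535 to 71566 in knockout and 67905 to 69834 in rescued livers, without overlap. No call was made among 5 cholangiocyte, 6 Kupffer cell and 5 lymphocyte markers. Of 6 endothelial markers Clec4g was called lower, and of 6 stellate cell markers Lrat was called higher, and neither call was kept after all 3 rescalings. The summed cholangiocyte markers, also as deposited, were at 533 to 603 in knockout and 463 to 511 in rescued livers, without overlap. The median difference of these 5 markers was 0.10 as deposited. It was -0.01 after quantile normalization, -0.02 after cyclic loess and 0.01 after median centring. The summed red cell markers were at 414 to 556 in knockout and 832 to 983 in rescued livers, over 2 measured genes that differed in opposite directions. Of these Alas2 was called lower (-1.15), and Slc4a1 differed by 0.37 without a call (adjusted p = 0.0535 in limma). By their mean over the 7 arrays, 2 cholangiocyte markers (Cftr and Epcam) and 2 lymphocyte markers (Cd79a and Ms4a1) were dim. The part of these cells in the results was not tested, and fewer cells of a type cannot be told apart from less RNA per cell.

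Of the 48 members, 9 rose and 3 fell in the knockout livers, and 36 were not called. That is 25.0% called, beside 14.4% of all genes. Among the 35 members that were not dim 31.4% were called, beside 17.1% of all genes that exceeded the same level. Of the 9 rises 7 were glutathione transferases, and each family held 1 member that fell. After all 3 rescalings 8 rises and all 3 falls kept their call and direction, 11 of 48 members. Of all genes 6.67% did so, 2.61% as rises and 4.06% as falls. Quantile normalization gave 10 rises and 4 falls among the members, where 9.83% of all genes were called (4.51% higher, 5.32% lower). Median centring gave 8 rises and 6 falls, where 12.4% were called (3.37% higher, 9.04% lower). Cyclic loess gave 9 rises and 4 falls, where 9.74% were called (4.38% higher, 5.36% lower). The median difference over all members was 0.17 beside 0.09 over all genes as deposited, and 0.07 beside 0.01 after quantile normalization. Knockout and rescued arrays were fully separated in 18 of the 48 members, beside 29.6% of all genes. In 14 of these the knockout arrays were above (21.0% of all genes) and in 4 below (8.56% of all genes). Glutathione transferases had 7 rises and 1 fall among 22 members, glucuronosyltransferases 0 and 1 among 10, and sulfotransferases 2 and 1 among 16. Whether the families differ in these counts was not tested.

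**Figure D1:**
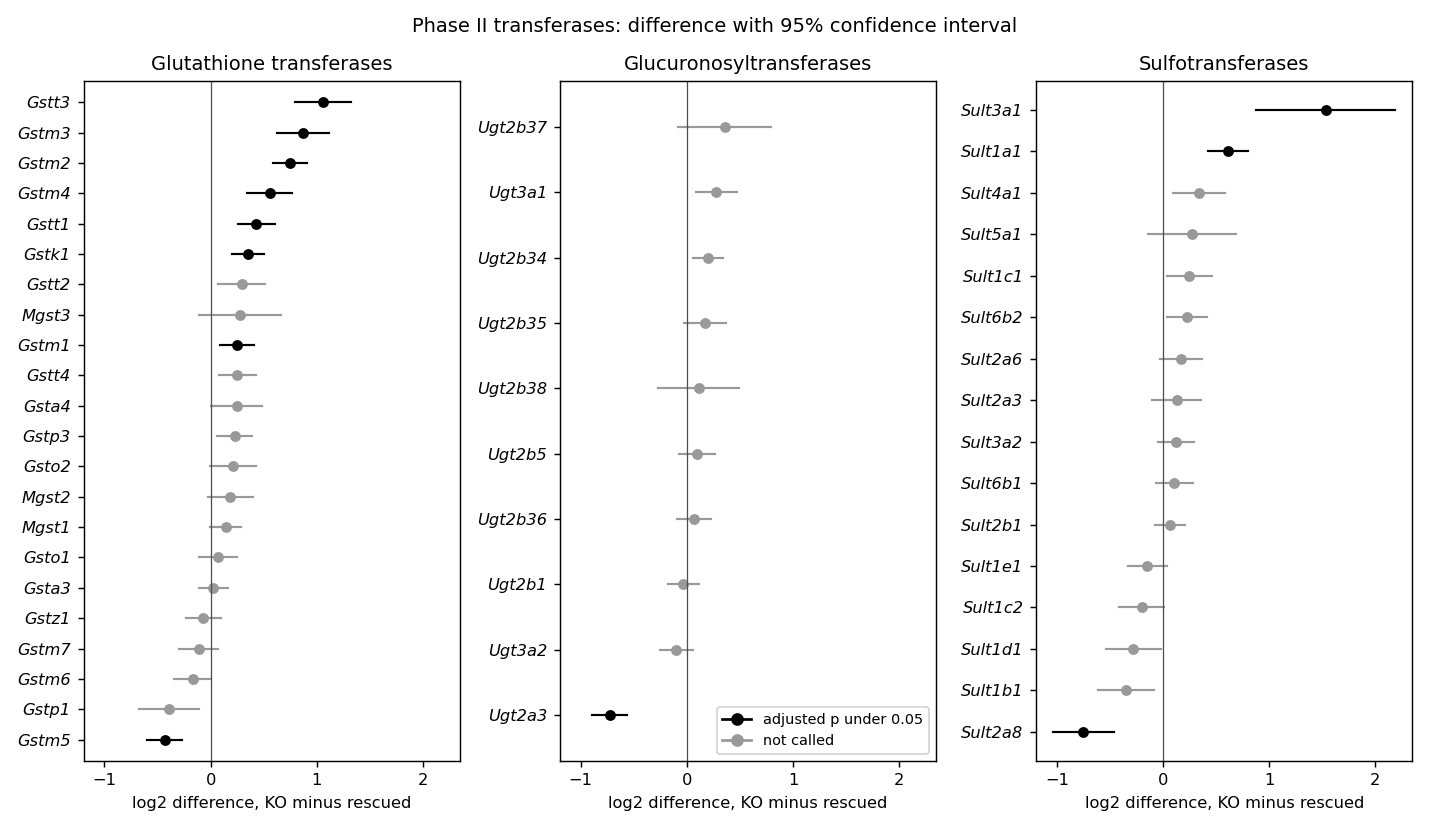
Log2 difference, knockout minus rescued, of each of the 48 members with its 95% confidence interval from limma, by family. Black points passed an adjusted p under 0.05; they lie from 0.25 to 1.06 and at -0.43 among glutathione transferases, at -0.73 among glucuronosyltransferases and at 0.61 and -0.75 among sulfotransferases. Sult3a1, dim on all 7 arrays, is the point farthest to the right, and its size is not read as a fold.

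The mu class glutathione transferases had more calls than any other subfamily, with 4 rises and 1 fall among 7 genes. They are abundant cytosolic enzymes of rodent liver. Gstm3 was at 13.33, 13.36 and 12.92 in knockout replicates 1 to 3, against 12.39, 12.48, 12.26 and 12.21 in the rescued replicates. All knockout arrays lay above all rescued arrays, and the difference was 0.87 (SE 0.11), 1.83-fold, with adjusted p = 0.00145. Gstm3 was the 1 member with 2 probe sets of a single symbol, and in a fit over all rows its other probe set differed by 1.13 (2.19-fold, adjusted p = 0.00355). Gstm2 was at 10.35, 10.55 and 10.33 in knockout, against 9.70, 9.65, 9.66 and 9.64 in rescued livers. The rescued arrays were nearly equal (SD 0.03, n = 4) and all lay below every knockout array. The difference of 0.75 (SE 0.07) was 1.68-fold, with the smallest adjusted p of any member, 0.000298.

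Gstm4 was at 12.11, 12.12 and 11.81 in knockout, against 11.54, 11.54, 11.45 and 11.29 in rescued livers, again without overlap. It was 1.47-fold higher (difference 0.56, SE 0.10, adjusted p = 0.00666). Gstm1 was at 13.26 ± 0.12 in knockout (SD, n = 3) and 13.01 ± 0.04 in rescued livers (SD, n = 4). Its rise of 0.25 (adjusted p = 0.0437 in limma) was the weakest call of the 12. It was lost after every rescaling (adjusted p = 0.130 to 0.147) and without any 1 array other than knockout replicate 3 (adjusted p = 0.0648 to 0.129).

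Gstm5 went the other way. It was at 7.26, 7.30 and 7.23 in knockout, against 7.70, 7.59, 7.85 and 7.66 in rescued livers. Every knockout array lay below every rescued array, and Gstm5 was 1.35-fold lower (difference -0.43, SE 0.08, adjusted p = 0.00711). Gstm6 (10.65 ± 0.10 in knockout, 10.82 ± 0.10 in rescued) and Gstm7 (10.64 ± 0.07 in knockout, 10.75 ± 0.13 in rescued) were not called, with 95% confidence intervals of the difference from -0.34 to 0.01 and from -0.29 to 0.07. After median centring Gstm6 was called lower (difference -0.26, adjusted p = 0.0468 in limma's test). By RefSeq positions (GRCm38.p6) the 7 genes lie on chromosome 3 in the order Gstm5, Gstm7, Gstm6, Gstm3, Gstm2, Gstm1, Gstm4. The 4 genes that rose as deposited are thus neighbours at one end, and the 3 with negative differences are neighbours at the other. Because mu class probes can cross-hybridise, the values of neighbours need not be independent.

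**Figure D2:**
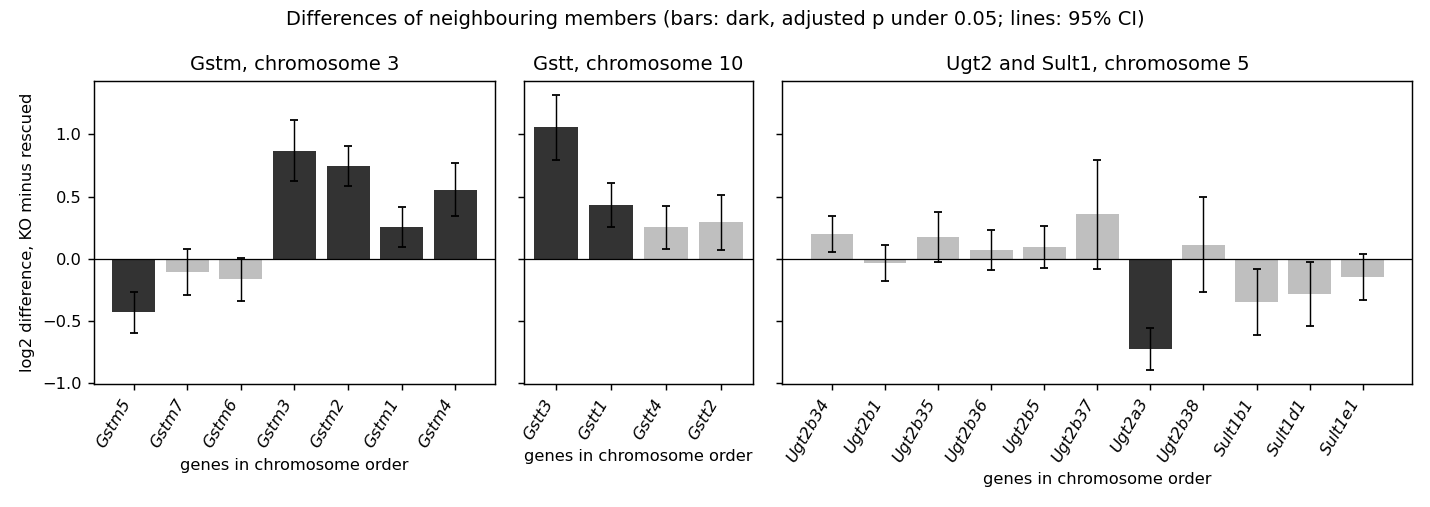
Log2 difference, knockout minus rescued, of members in 3 gene clusters, with genes in RefSeq chromosome order and 95% confidence intervals as lines. Dark bars passed an adjusted p under 0.05: Gstm3, Gstm2, Gstm1 and Gstm4 are positive and Gstm5 negative, Gstt3 and Gstt1 are positive, and Ugt2a3 is negative between Ugt2b37 and Ugt2b38.

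The promoters of Gstm3, Gstm2 and Gstm5 are printed because these genes of 1 cluster differed in opposite directions. Each window runs from 250 bases before to 50 bases after the start given by RefSeq (GRCm38.p6), 5′ to 3′ on the gene's strand. Capitals mark matches, on either strand, to TGACNNNGC (the core of the antioxidant response element bound by NRF2), GCGTG (the core bound by the Ah receptor) or AGGTCA (a motif bound by many nuclear receptors). A window without capitals holds none of the 3.
Gstm3 (chr3:107969125-107969424, minus strand): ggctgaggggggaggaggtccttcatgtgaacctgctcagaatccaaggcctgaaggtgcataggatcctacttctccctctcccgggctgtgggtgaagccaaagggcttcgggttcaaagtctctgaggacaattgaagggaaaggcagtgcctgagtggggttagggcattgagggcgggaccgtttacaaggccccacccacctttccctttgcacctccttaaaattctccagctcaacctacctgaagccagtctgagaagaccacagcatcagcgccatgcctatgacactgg
Gstm2 (chr3:107986371-107986670, minus strand): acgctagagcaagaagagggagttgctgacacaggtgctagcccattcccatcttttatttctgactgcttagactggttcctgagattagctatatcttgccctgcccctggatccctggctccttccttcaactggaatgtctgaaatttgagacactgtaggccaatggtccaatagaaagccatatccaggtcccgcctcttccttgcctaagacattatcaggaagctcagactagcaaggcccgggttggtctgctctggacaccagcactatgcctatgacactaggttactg
Gstm5 (chr3:107895604-107895903, plus strand): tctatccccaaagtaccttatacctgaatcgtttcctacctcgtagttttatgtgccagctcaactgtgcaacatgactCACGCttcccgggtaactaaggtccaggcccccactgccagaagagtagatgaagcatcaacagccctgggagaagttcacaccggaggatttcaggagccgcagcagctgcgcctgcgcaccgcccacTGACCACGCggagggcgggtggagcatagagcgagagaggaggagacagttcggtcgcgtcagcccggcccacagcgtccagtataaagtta
The windows of Gstm3 and Gstm2, which rose, held none of these letters. That of Gstm5, which fell, held TGACNNNGC once and GCGTG on the opposite strand 2 times, the second overlapping the TGACNNNGC match.

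RefSeq windows were found for 44 of the 48 members, including all 12 that were called. TGACNNNGC was present in the windows of 4 of the 44 members, none of them among the 9 that rose. Some members have several windows, 56 in all, and 7.14% of these held it, beside 12.4% of all 32851 windows. Those 4 were Gsta3, Gstm5, Gstm7 and Mgst1. GCGTG was found in 8 members, or 17.9% of their windows beside 32.4% of all. AGGTCA was found in 10 members, or 17.9% of their windows, close to the 16.3% of all windows. Of the 9 members that rose, Gstm1 held GCGTG, and Gstm1 and Gstk1 held AGGTCA. A match of letters is not a shown binding site, and sites farther from the start were not searched.

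The theta class acts on small halogenated compounds and other electrophiles. Its member Gstt3 had the largest difference among glutathione transferases. It was at 10.73, 10.78 and 10.46 in knockout, against 9.70, 9.52, 9.33 and 9.82 in rescued livers. The groups were separated by more than the spread within either, and Gstt3 was 2.08-fold higher (difference 1.06, SE 0.12, adjusted p = 0.000729). Gstt1 was at 12.74, 12.52 and 12.76 in knockout, against 12.28, 12.13, 12.24 and 12.31 in rescued livers. It was 1.35-fold higher without overlap (difference 0.43, SE 0.08, adjusted p = 0.00926). Both calls held after every rescaling and with any array left out. Gstt2 (8.90 ± 0.16 in knockout, 8.61 ± 0.16 in rescued, adjusted p = 0.0695) and the dim Gstt4 (5.55 ± 0.16 in knockout, 5.29 ± 0.03 in rescued, adjusted p = 0.0558) were not called in limma's test. Gstt2 was called after quantile normalization (adjusted p = 0.0482). The 4 genes are neighbours on chromosome 10, in the order Gstt3, Gstt1, Gstt4, Gstt2.

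Gstk1 encodes the kappa class enzyme of mitochondria and peroxisomes. It was at 12.58, 12.61 and 12.47 in knockout, against 12.19, 12.17, 12.17 and 12.27 in rescued livers. The separation was small but complete, and the rise was 1.28-fold (difference 0.35, SE 0.07, adjusted p = 0.0103), kept after every rescaling.

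The other glutathione transferases were not called. Gsta3, the alpha class enzyme known in mice for conjugating aflatoxin epoxide, was at 12.52 ± 0.04 in knockout livers and 12.49 ± 0.02 in the rescued ones, with a 95% confidence interval of the difference from -0.11 to 0.16. Gsta4, known for conjugating the lipid peroxidation product hydroxynonenal, was at 10.80 ± 0.25 in knockout livers, with 10.55 ± 0.09 in rescued livers (adjusted p = 0.132). The microsomal Mgst1 (12.84 ± 0.04 in knockout, 12.69 ± 0.05 in rescued, adjusted p = 0.146), the omega class Gsto1 (9.98 ± 0.03 in knockout, 9.92 ± 0.13 in rescued) and Gstz1, which also isomerises maleylacetoacetate in tyrosine breakdown (11.25 ± 0.10 in knockout, 11.32 ± 0.08 in rescued), had 95% confidence intervals of the difference that lay within -0.24 to 0.29. Over the 14 members not called, differences ran from -0.40 to 0.29. Mgst2, Gsto2 and Gstt4 among them were dim.

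Gstp1, the pi class enzyme that is more abundant in livers of male than of female mice, stood close to a call. It was at 13.39, 13.07 and 12.70 in knockout, against 13.38, 13.46, 13.48 and 13.46 in rescued livers. The 4 rescued arrays were nearly equal, while the knockout arrays were spread over 0.34 (SD, n = 3) and replicate 1 lay within the rescued range. The difference of -0.40 was not called as deposited (adjusted p = 0.0599 in limma's test), and it was called after quantile normalization (adjusted p = 0.0379), median centring (0.0246) and cyclic loess (0.0320). With 1 array left out it ranged from -0.56 to -0.22 and was called without knockout replicate 1 only. The related Gstp3 was at 8.39 ± 0.06 in knockout livers, with 8.16 ± 0.10 in rescued livers (adjusted p = 0.0606), and was called higher after quantile normalization and cyclic loess but not after median centring.

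**Figure D3:**
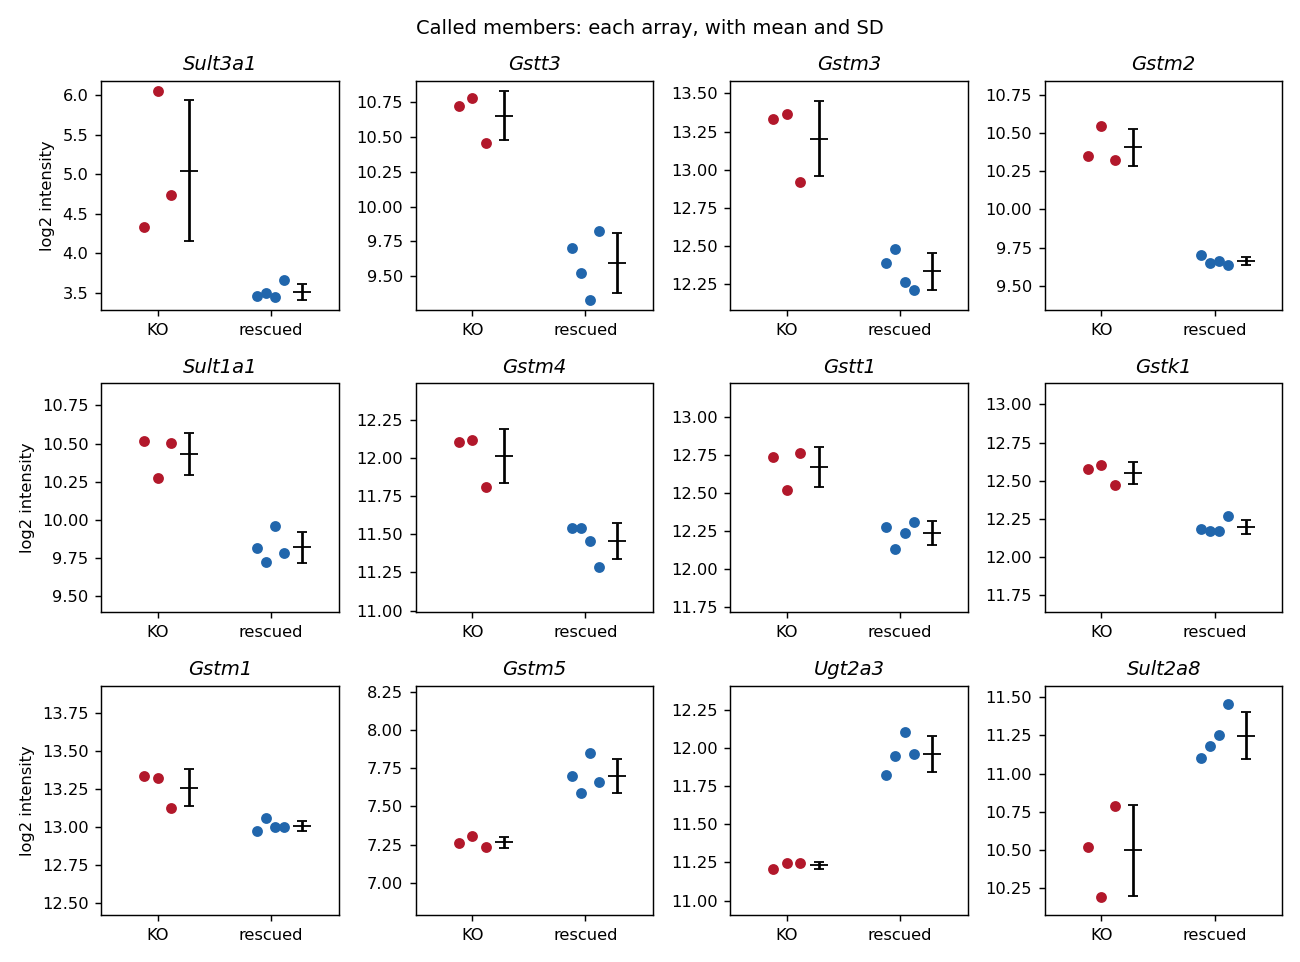
Log2 intensity of the 12 called members in each knockout array (left, red, n = 3) and each rescued array (right, blue, n = 4), with mean and SD beside the points; the vertical axes cover different ranges. In all 12 the groups do not overlap, and the knockout arrays of Sult3a1 are spread from 4.34 to 6.05.

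Some probe sets carry several gene symbols with family genes among them, and genes found only there are no members. Gstp1, Ugt3a1 and Ugt3a2 occur on such rows but are members through probe sets of their own. These shared rows were read from a fit over all rows of the table, in which 9.76% of rows were called. Of 10 such rows 3 were called higher, 1 lower and 6 not. All 3 higher ones carry Gsta1 and Gsta2, inducible alpha class enzymes, together with Gm10639 and Gm3776. The first was at 11.08, 11.13 and 10.17 in knockout, against 9.11, 9.06, 8.79 and 7.64 in rescued livers, 4.41-fold higher (difference 2.14, SE 0.35, adjusted p = 0.0105 in limma). The other 2 differed by 0.91 (adjusted p = 0.00315) and 0.92 (adjusted p = 0.0153), and all 3 were also called after each rescaling. Of 2 rows shared by Gstp1 and Gstp2, 1 was called lower (9.72 ± 0.26 in knockout and 10.40 ± 0.29 in rescued livers, adjusted p = 0.0333), also after each rescaling, and the other was not (difference -0.38, adjusted p = 0.118). The row shared by 8 Ugt1a genes, whose products include the bilirubin-conjugating enzyme, averaged 11.60 ± 0.06 in knockout livers, against 11.43 ± 0.05 in rescued ones, and was not called (adjusted p = 0.110). The rows shared by Sult2a1 and its relatives were dim in both groups.

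Among the 10 glucuronosyltransferases 9 were not called. All 10 exceeded the dim level, with means over the 7 arrays from 8.28 to 12.7. Ugt2a3 fell. In human its product conjugates bile acids. It was at 11.21, 11.24 and 11.24 in knockout, against 11.82, 11.95, 12.11 and 11.96 in rescued livers. The knockout arrays were nearly equal and all lay below the rescued arrays, for a 1.66-fold lower level (difference -0.73, SE 0.08, adjusted p = 0.000467). With any array left out the difference stayed between -0.77 and -0.68 and was called.

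The Ugt2b genes encode steroid and drug glucuronidating enzymes. Ugt2b34 was at 12.87, 12.78 and 12.73 in knockout, against 12.57, 12.61, 12.60 and 12.59 in rescued livers. The groups did not overlap, but the difference of 0.20 was not called (adjusted p = 0.0622). It was called among genes above the median level (adjusted p = 0.0491). Ugt2b1 differed by -0.03 (95% confidence interval -0.18 to 0.11), Ugt2b36 by 0.07 (-0.09 to 0.23) and Ugt2b5 by 0.09 (-0.08 to 0.27). Ugt2b35, Ugt2b37 and Ugt2b38 differed by 0.17, 0.36 and 0.11 and were not called. The rescued arrays were widely spread for Ugt2b37 (SD 0.41, n = 4) and Ugt2b38 (SD 0.39, n = 4). Ugt3a1, whose human counterpart uses UDP-N-acetylglucosamine, was at 11.58 ± 0.09 in knockout livers, with 11.30 ± 0.14 in rescued livers, just short of a call (adjusted p = 0.0549). Ugt3a2 was at 11.89 ± 0.05 in knockout livers, with 11.99 ± 0.08 in rescued livers (adjusted p = 0.324).

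Ugt2a3 lies between Ugt2b37 and Ugt2b38 on chromosome 5. Its window is printed beside that of Ugt2b36, a neighbour in the cluster that was not called, with the same motifs in capitals.
Ugt2a3 (chr5:87337146-87337445, minus strand): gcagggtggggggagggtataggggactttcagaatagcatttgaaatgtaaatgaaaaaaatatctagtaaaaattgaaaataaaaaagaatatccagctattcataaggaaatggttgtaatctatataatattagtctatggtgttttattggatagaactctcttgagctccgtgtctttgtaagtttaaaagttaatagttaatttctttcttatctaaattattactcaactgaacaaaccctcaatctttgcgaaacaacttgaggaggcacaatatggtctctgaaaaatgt
Ugt2b36 (chr5:87092506-87092805, minus strand): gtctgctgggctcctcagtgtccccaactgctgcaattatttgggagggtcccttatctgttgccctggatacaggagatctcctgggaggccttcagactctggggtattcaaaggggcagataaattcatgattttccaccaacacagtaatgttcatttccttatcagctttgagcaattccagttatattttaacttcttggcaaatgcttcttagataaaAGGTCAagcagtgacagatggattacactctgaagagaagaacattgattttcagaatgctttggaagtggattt
The window of Ugt2b36 held AGGTCA, starting 25 bases before the RefSeq start. The same letters began 25 bases before the start of Ugt2b38, 22 before that of Ugt2b5 and 39 before that of Ugt2b37. In Ugt2b35, also not called, they lay much farther from the start. No match to AGGTCA was found for Ugt2b34 or Ugt2b1, which lie in the same cluster and were not called either. The window of Ugt2a3 held none of the 3 motifs. Whether these letters bear on the fall of Ugt2a3 was not tested.

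Of the 16 sulfotransferases 10 were dim. Sult1a1, the phenol sulfotransferase, rose. It was at 10.51, 10.27 and 10.50 in knockout, against 9.82, 9.72, 9.96 and 9.78 in rescued livers. The groups were clearly apart, with a 1.53-fold higher level in knockout (difference 0.61, SE 0.09, adjusted p = 0.00222). The other bright Sult1 genes had negative differences and were not called. Sult1d1, which sulfates catecholamines in mice, was at 11.08 ± 0.23 in knockout livers, with 11.36 ± 0.18 in rescued livers (adjusted p = 0.114). Sult1b1, which sulfates thyroid hormones, was at 8.23 ± 0.09 in knockout livers, with 8.58 ± 0.25 in rescued livers (adjusted p = 0.0713 in limma's test, and 0.0371 after median centring). Sult1c2 was at 6.61 ± 0.05 in knockout livers, with 6.82 ± 0.18 in rescued livers (adjusted p = 0.154).

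Sult2a8 belongs to the hydroxysteroid and bile acid sulfotransferase subfamily, and had the most negative difference of all members. It was at 10.52, 10.19 and 10.78 in knockout, against 11.10, 11.18, 11.25 and 11.46 in rescued livers. The knockout arrays were the more spread, and none reached the rescued range. Sult2a8 was 1.68-fold lower (difference -0.75, SE 0.13, adjusted p = 0.00664), with -0.89 to -0.60 when an array was left out. The other Sult2 members, Sult2a3, Sult2a6 and the cholesterol sulfotransferase Sult2b1, were dim, with differences of 0.06 to 0.17 that were not called.

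Sult3a1, a sulfotransferase with female-biased expression in mouse liver, was at 4.34, 6.05 and 4.74 in knockout, against 3.45, 3.50, 3.45 and 3.66 in rescued livers. Replicate 2 was far above the other knockout arrays. All 7 arrays were dim, so the size of the difference is not read as a fold. It was called (adjusted p = 0.0113 in limma), also with any array left out, but not with trend and robust spread (adjusted p = 0.0514). Sult1e1, the oestrogen sulfotransferase, was dim, averaging 3.37 ± 0.09 in knockout livers, with 3.52 ± 0.12 in rescued livers (adjusted p = 0.219), as was the brain-type Sult4a1 at 6.02 ± 0.15 in knockout livers, with 5.69 ± 0.20 in rescued livers (adjusted p = 0.0633). The bright Sult5a1 was at 8.26 ± 0.08 in knockout livers, with 7.98 ± 0.44 in rescued livers (adjusted p = 0.301). The remaining dim members Sult1c1, Sult3a2, Sult6b1 and Sult6b2 differed by 0.11 to 0.25 without a call.

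**Figure D4:**
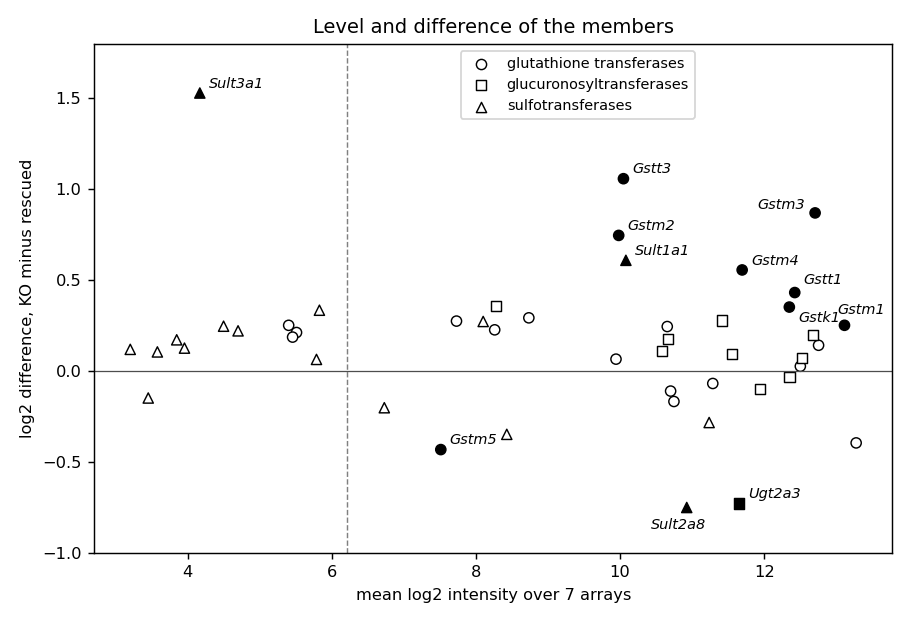
Mean log2 intensity over 7 arrays against the log2 difference, knockout minus rescued, of each member, with symbols by family and filled symbols for an adjusted p under 0.05. The dashed line at 6.21 is the 95th percentile of the olfactory and vomeronasal receptor genes; of the 13 members left of it, Sult3a1 is the 1 that was called.

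Of 18 measured genes of glutathione supply and turnover, glutathione peroxidases among them, 7 rose and none fell. Of these rises 5 were also called after all 3 rescalings. Of all genes 9.54% rose and 4.85% fell, and 2.61% rose in all 3 rescalings too. The median difference of the list was 0.29 beside 0.09 over all genes. Cth, which makes the cysteine that goes into glutathione, was at 12.32, 12.31 and 12.30 in knockout, against 11.79, 11.68, 11.69 and 11.77 in rescued livers, 1.49-fold higher (adjusted p = 0.000729). Cbs, the preceding enzyme of transsulfuration, was 1.37-fold higher (adjusted p = 0.00595), Oplah, which recycles oxoproline, 1.36-fold (adjusted p = 0.00926) and the gamma-glutamyltransferase gene Ggt6 1.35-fold (adjusted p = 0.00781). Glutathione reductase Gsr was at 10.48 ± 0.26 in knockout livers, with 10.04 ± 0.05 in rescued livers (adjusted p = 0.0250). The subunits of glutamate-cysteine ligase, the limiting step of synthesis, were not called: Gclc differed by 0.31 (adjusted p = 0.149) and Gclm by -0.03 (adjusted p = 0.775).

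Of 9 genes of UDP-glucuronic acid supply and release, 2 rose and 2 fell, beside 9.54% and 4.85% of all genes. The UDPase Entpd5 was 1.47-fold higher (adjusted p = 0.00622) and the nucleotide sugar transporter Slc35d2 1.36-fold (adjusted p = 0.0162). Gusb, the lysosomal enzyme that removes glucuronic acid, was 1.25-fold lower (adjusted p = 0.0267), and Entpd4 differed by -0.24 (adjusted p = 0.0467), a call not kept after all rescalings. Ugdh, which makes UDP-glucuronic acid, differed by 0.20 and was not called (adjusted p = 0.212). Of 11 genes of PAPS and sulfate supply, 2 rose and 1 fell, beside 9.54% and 4.85% of all genes. The sulfate transporter Slc26a1 averaged 8.89 ± 0.07 in knockout livers, against 9.52 ± 0.10 in rescued ones, and was 1.54-fold lower (adjusted p = 0.00118). The PAPS synthase Papss2 was 1.32-fold higher (adjusted p = 0.0200), and Csad, an enzyme that turns cysteine products into taurine, averaged 11.13 ± 0.23 in knockout livers, against 9.98 ± 0.81 in rescued ones (adjusted p = 0.0451). Neither of these rises kept its call after all rescalings.

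Of 21 receptors and factors known to act on phase II genes, 3 rose and 4 fell, beside 9.54% and 4.85% of all genes. The PXR gene Nr1i2 (10.17 in knockout and 10.18 in rescued livers), the CAR gene Nr1i3 (11.24 in knockout, 11.37 in rescued) and the NRF2 gene Nfe2l2 (10.62 in knockout, 10.53 in rescued) were not called. Ahr, the Ah receptor gene, was 1.36-fold higher (adjusted p = 0.0198, not kept after all rescalings). Mafk, a partner of NRF2, was 1.31-fold higher (adjusted p = 0.00817) and Stat5b, the growth hormone signalling factor, 1.68-fold (adjusted p = 0.00122). Onecut1, Nr1h3, Foxa3 and Nr1h4 fell by 0.80, 0.59, 0.53 and 0.36 on the log2 scale (adjusted p = 0.0221, 0.00163, 0.00733 and 0.0181 in that order).

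Of 19 other conjugating and phase II enzymes, 4 rose and 2 fell, beside 9.54% and 4.85% of all genes. The quinone reductase Nqo1, a classical NRF2 target, was at 8.24, 8.60 and 7.76 in knockout, against 6.96, 7.31, 7.29 and 7.07 in rescued livers, 2.05-fold higher (adjusted p = 0.00455). The methyltransferase genes As3mt and Gnmt were 1.34-fold (adjusted p = 0.0102) and 1.28-fold higher (adjusted p = 0.0169). Glyat, which conjugates acyl groups to glycine, was 1.53-fold lower (adjusted p = 0.00163). Tpmt, Nnmt, Baat and Ephx1 were not called.

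**Figure D5:**
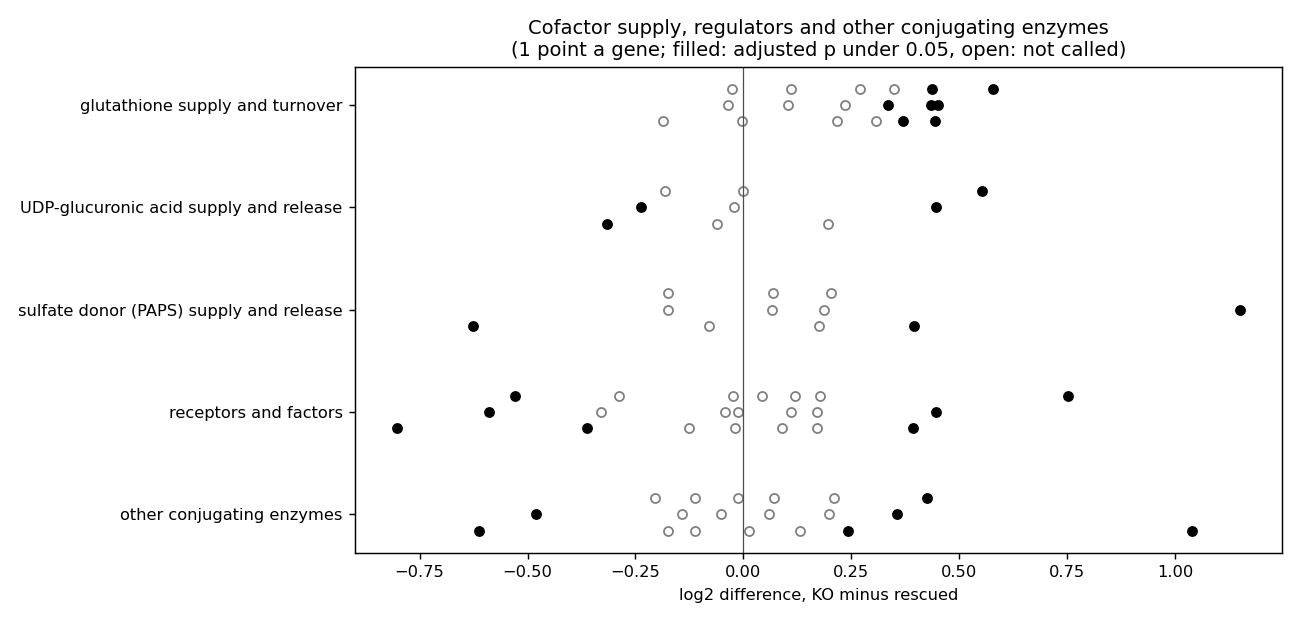
Log2 difference, knockout minus rescued, of the genes of 5 lists around the transferases, with 1 point per gene, filled for an adjusted p under 0.05. The filled points of glutathione supply and turnover all lie right of 0, from 0.34 to 0.58, while each of the other lists has filled points on both sides.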

How the data were processed

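RNA from 7 livers was measured on 7 Affymetrix arrays of the design Mouse Gene 1.0 ST. The authors deposited 1 linear intensity per probe set and array (27541 rows, 5.41 to 17351, as found from the values). RMA and Partek are named in the submitters' processing notes, without versions or roles, and no source used here names a genome build; the last scaling step is likewise unknown. Of the rows, 21631 carried 1 gene symbol in the platform annotation. The difference of group means in log2 intensity was tested two-sided with limma (version 3.58.1, R 4.3.3), without covariates or a filter on dim genes, and the fit was tested on simulated data. Rows with several symbols were read from a fit over all rows, a choice made after seeing the data. Alternatives were 3 rescalings, array weights, a level filter, averaging a gene's probe sets, a trended robust prior, a replicate block, a stricter threshold and each array left out. Genes named by rule were Hdac3, called members, the brightest member of each subfamily and, where none was called, the one with the smallest p, members with several probe sets and up to 4 called genes per list. Other genes named were chosen after their values were seen. The members and lists were chosen with earlier results of these data known. Promoter windows and gene order came from RefSeq (GRCm38.p6), and all 48 members were matched by gene ID. The number of arrays limits the precision, and the p-values set each difference against the spread between these arrays, moderated over all genes. Figures were drawn with matplotlib 3.10.9.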

Additional observations from a re-analysis of the deposited data

Results flagged for a closer look

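The 4 rescued arrays were checked by Dixon's criterion in 49 genes (the 48 members and Hdac3), and the 3 knockout arrays were not. In 5 of these genes 1 rescued array stood apart from the other 3, and chance flags about 1 in 20 groups. Gstk1 was at 12.27 in rescued replicate 4, against 12.17 to 12.19 in the others. Sult1c2 was at 6.55 in rescued replicate 4, against 6.89 to 6.93. Sult1e1 was at 3.705 in rescued replicate 4, against 3.45 to 3.46, all of them dim. Sult6b1 was at 3.42 in rescued replicate 1, against 3.57 to 3.58, likewise dim. Ugt3a2 was at 12.11 in rescued replicate 4, against 11.94 to 11.96. Without rescued replicate 4 Gstk1 kept its call, and Sult1c2 was called lower (difference -0.29, adjusted p = 0.0429 in limma's test).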

How the results depend on the processing

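Over the 48 members, Hdac3 and all alternatives run, no called difference changed sign. Of 805 values, 17 lost a call and 27 gained one. The 3 falls among the members became 6 after median centring, with 3 falls among glutathione transferases and 2 among sulfotransferases. Glutathione transferases had 2 falls after quantile normalization, after cyclic loess, with array weights and with cyclic loess among genes above the median level (added after seeing the data). Among genes above the median level and with trend and robust spread, 2 glucuronosyltransferases rose and 1 sulfotransferase did, and 1 sulfotransferase rose with an adjusted p under 0.01 and with the added filter. For Sult3a1 the filter left no value. In the fit over all rows Gstm1 was not called (adjusted p = 0.0551).

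Over all genes 1901 rose and 966 fell. The genes called higher were 899 after quantile normalization, 672 after median centring (1801 genes called lower), 873 after cyclic loess, 1032 among genes above the median level, 1029 with the added filter, and 266, with 243 genes called lower, at an adjusted p under 0.01. The share of rises thus depends on the scaling.

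The replicate number is shared by the titles of both groups, and the labels do not say whether it pairs the mice. Deviations of same-numbered arrays correlated at 0.151, 0.003 and 0.005, the first being the highest of all pairs of arrays. Knockout replicates 2 and 3 correlated best with rescued replicates 3 and 2 (0.148 and 0.066). So few arrays cannot decide whether the numbers pair the mice. With the replicate block the genes called higher numbered 1233, and 1 glucuronosyltransferase and 4 sulfotransferases rose while 2 sulfotransferases fell. No knockout array shares the number of rescued replicate 4, so in the block fit that array did not bear on the differences. They equalled those without it, for example 0.74 for Gstm2 and 0.83 for Gstm3.

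With 1 array left out, the members that rose numbered 8 to 10 and those that fell 3 to 4, and 11 to 12 of the 12 called members kept their call. Glutathione transferases had 6 to 8 rises and 1 to 2 falls, glucuronosyltransferases 0 to 1 rises and 1 fall, sulfotransferases 2 to 3 rises and 1 to 2 falls. Over all genes 449 to 2199 rose and 417 to 1064 fell. The genes called higher numbered 449 without knockout replicate 1, 1078 without knockout replicate 2, and 692, 531 and 798 without rescued replicates 2, 3 and 4. The genes called lower numbered 448 and 643 without knockout replicates 1 and 2, and 508, 417 and 533 without rescued replicates 2, 3 and 4. Dim members may hide differences that these arrays cannot show.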

Other observations

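Within the knockout group, replicate 3 had the lowest value for 6 of the 9 members that rose, among them Gstt3 and Gstm1 to Gstm4, and also for Nqo1 and Gsr. It was the lowest knockout array for 46.8% of all genes and for 51.5% of the genes called higher, and it had the lowest median intensity of the 3. These genes were picked after their values were seen.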
